A study of Homo sapiens with 6 samples.

Results

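The genes described here are 38 members of the cell death machinery: the BCL2 family, the caspases, the inhibitor of apoptosis proteins and the death receptors with their adaptors. They were chosen by gene symbol for these roles, with earlier results of these data known although the rule itself uses no measured value, and are 38 of the 60564 gene rows in the count table. Of the 38, 36 had enough counts to be tested, among 17006 tested genes in all.

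Poly(A) RNA of the ovarian cancer line A2780, of human origin, was sequenced in 3 libraries with the genotype label GPT2si and 3 with the label GPT2sinc. The labels do not spell out si and sinc, name no further treatment or time, and do not say which sequences were used to lower GPT2 or whether 1 or several clones were used. Nothing in the labels says that replicates are separate cultures, and the p-values therefore describe the spread among these libraries, which could be technical. GPT2 encodes the mitochondrial alanine aminotransferase, and the series title concerns its deficiency in ovarian cancer cells.

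Cells die by apoptosis along a pair of main routes. In the mitochondrial route, BH3-only proteins neutralise the anti-apoptotic BCL2 proteins, the effectors BAX and BAK1 permeabilise the outer mitochondrial membrane, and released cytochrome c assembles with APAF1 into the apoptosome that activates caspase 9. In the receptor route, ligand-bound death receptors recruit FADD and caspase 8, and inhibitor of apoptosis proteins (IAPs) restrain caspases and receptor signalling along the way. Ovarian cancer cells are known to depend on the balance of BCL2 family members for survival and for their response to platinum drugs.

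The targeted gene fell in the GPT2si libraries. The GPT2 gene (ENSG00000166123; GRCh38 chromosome 16, 46884378 to 46931297, plus strand, in GENCODE 29) had 93.8, 94.3 and 96.9 CPM (counts scaled to library size with TMM factors) in GPT2si 1 to 3, against 236, 230 and 219 CPM in GPT2sinc 1 to 3. This gave a log2 fold change of -1.26 with an SE of 0.08 (adjusted p = 0.000393; edgeR with Benjamini-Hochberg adjustment over all tested genes). Total counts ran from 41931162 to 50882329 in GPT2si and from 43351984 to 45508530 in GPT2sinc. Of 8 ovarian epithelial markers, 5 stayed under 1 CPM in all 6 libraries (PAX8, WT1, KRT7, MUC16 and CDH1, with WT1 and KRT7 at 0), and the summed level of the list was 64.4 to 80.2 CPM in GPT2si and 57.3 to 59.9 CPM in GPT2sinc. The 6 mesenchymal markers, led by VIM, summed to 12323 to 13207 CPM in GPT2si and 12509 to 13686 CPM in GPT2sinc. Endothelial markers were under 1 CPM in all libraries (4 of 4), with sums of 0.0994 to 0.263 CPM in GPT2si and 0.0430 to 0.299 CPM in GPT2sinc. Of 5 leukocyte markers, 3 were under 1 CPM, and the list summed to 4.85 to 8.95 CPM in GPT2si and 6.57 to 6.71 CPM in GPT2sinc.

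A pair of libraries stood apart from the others, and the members follow them. GPT2si 2 was the highest or the lowest of the 6 libraries in 27 of the 36 tested members (75.0%), against 64.4% of all tested genes. GPT2sinc 1 was at an extreme in 23 of the 36 (63.9%), against 51.9% of all tested genes. The 15 members in which GPT2si 2 was highest had a median GC content of 58.6%, and the 12 in which it was lowest had a median of 43.6%. Over the fifth of all tested genes with the lowest GC content, the median level relative to the gene's mean over libraries was -0.37 (log2) in GPT2si 2 and 0.21 in GPT2sinc 1. Over the fifth with the highest GC content it was 0.21 in GPT2si 2 and -0.06 in GPT2sinc 1. A fit with GC and length offsets gives values beside the results below, and the part of GC content in them was not tested otherwise.

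**Figure D1:**
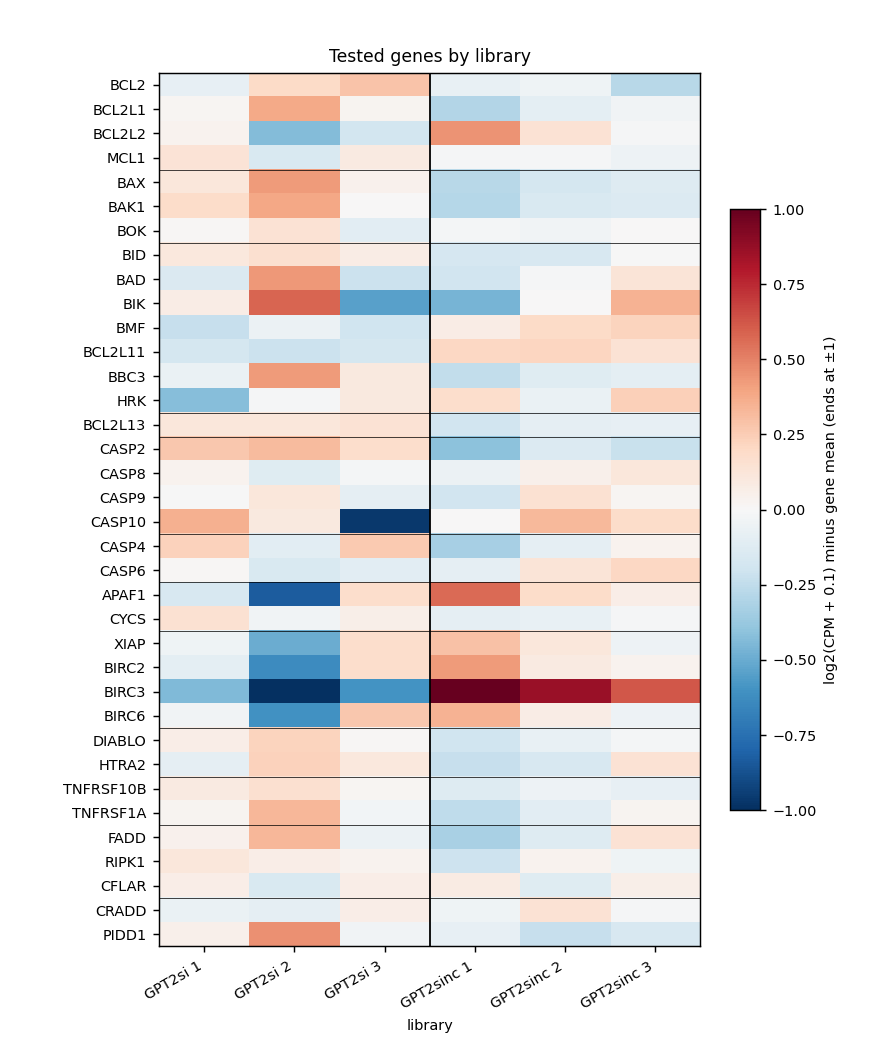
Level of each of the 36 tested genes (rows, ordered by role) in each library (columns), as log2(CPM + 0.1) minus the gene's mean over the 6 libraries; red is above and blue below that mean. The column of GPT2si 2 holds the highest or lowest value in 27 of 36 rows.

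Among the 36 tested members, 1 rose in GPT2si and 0 fell at an adjusted p under 0.05 (edgeR with Benjamini-Hochberg adjustment). Over all 17006 tested genes, 1.42% passed this threshold, 0.576% as higher and 0.841% as lower in GPT2si. The member that rose was CASP2, so the count rests on a single gene. At an unadjusted p under 0.05, 13 members passed, 9 higher and 4 lower, which is 36.1% of the members, against 19.6% of all tested genes (10.3% higher and 9.27% lower). The groups did not overlap in 13 members (36.1%), 10 higher and 3 lower in GPT2si, against 28.2% of all tested genes (14.9% higher and 13.2% lower). The median log2 fold change of the members was 0.10, against -0.01 over all tested genes. No chance test was made on these shares.

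The number of members past the adjusted threshold depended on the processing, and so did the share of all genes. Percentages in brackets here are shares of all tested genes, not of the members. The number of members was 0 with DESeq2 size factors in edgeR (1.02%), with limma-voom (1.02%) and without a low-count filter (0.154%). CASP2 kept its direction in each of these. With upper-quartile factors (1.42%) and with the filter of at least 1 CPM in 3 libraries (1.79%) the number was 1, CASP2. The DESeq2 Wald test called CASP2, BAX and BAK1 as higher (6.23%). GC and length offsets called 8 members (11.4%): BCL2L13, PIDD1, BAK1, CASP2, BBC3 and BAX as higher, and BMF and BIRC3 as lower. With a replicate block 2 members passed (3.28%), and with offsets and block together 9 passed (11.0%). Without GPT2si 2, 3 members passed (4.77%), CASP2 as higher and BMF and BIRC3 as lower. Without GPT2si 1 (0.0115%), GPT2si 3 (0.626%), GPT2sinc 1 (0.0231%), GPT2sinc 2 (0.00577%) or GPT2sinc 3 (0.0287%), 0 members passed.

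**Figure D2:**
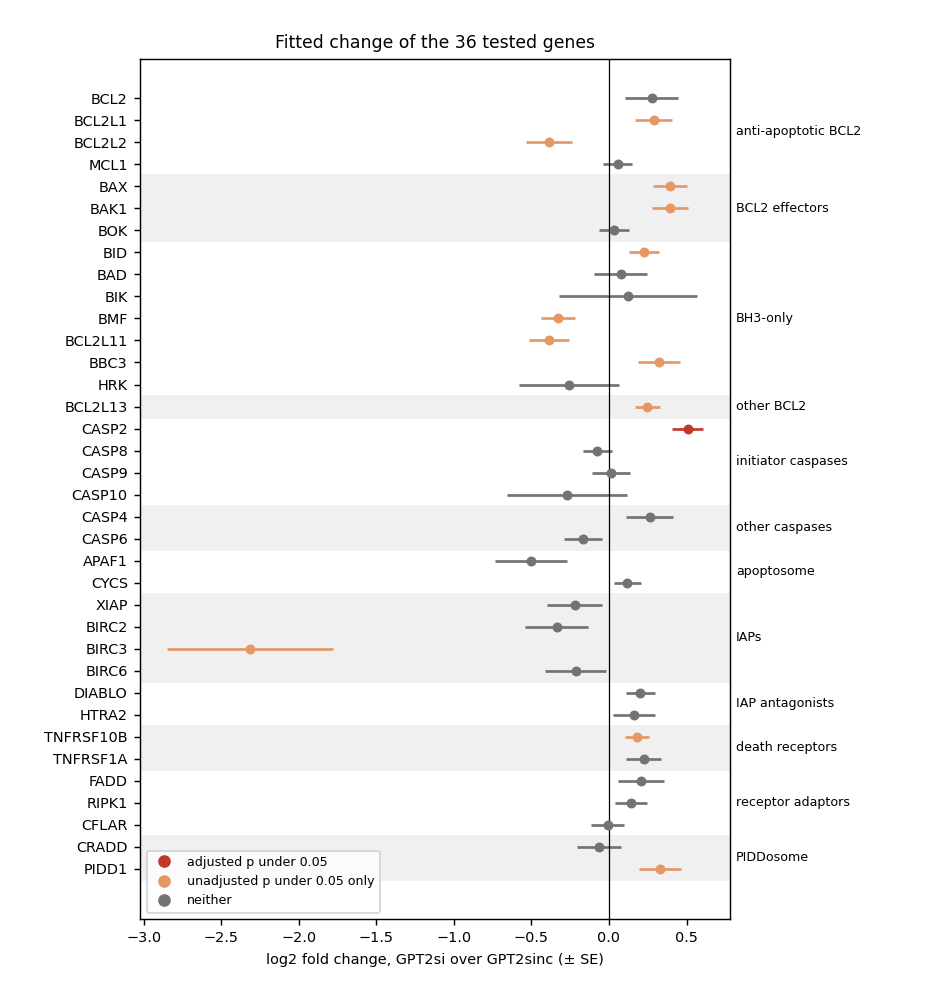
Log2 fold change, GPT2si over GPT2sinc, of the 36 tested genes with its standard error, grouped by role; the colours mark adjusted p under 0.05, unadjusted p under 0.05 only, and neither. CASP2 at 0.51 is the single gene past the adjusted threshold, and BIRC3 at -2.31 lies farthest from 0.

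The promoters of 3 members are shown first, because CASP2 is the member that rose, BIRC3 had the fitted change farthest from 0, and BAX, with 4 copies of 1 motif, had the smallest p of the BCL2 family. The sequences are 300 bases of RefSeq on GRCh38.p14, from 250 bases before to 50 bases after the annotated start, on the plus strand. They lie at chr7:143288101-143288400 for CASP2 (the first of its 2 windows), chr11:102317234-102317533 for BIRC3 and chr19:48954625-48954924 for BAX. Capitals mark the GC box (GGGCGG or its complement CCGCCC) in CASP2, the NF-kB consensus in BIRC3 and the E-box CACGTG in BAX.
CASP2: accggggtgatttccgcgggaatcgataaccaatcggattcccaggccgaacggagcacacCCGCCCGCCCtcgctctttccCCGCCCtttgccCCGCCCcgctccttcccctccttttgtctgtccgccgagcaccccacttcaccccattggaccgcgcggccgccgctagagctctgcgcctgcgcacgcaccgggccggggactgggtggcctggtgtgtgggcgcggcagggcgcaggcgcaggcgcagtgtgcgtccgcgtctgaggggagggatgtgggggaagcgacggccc
BIRC3: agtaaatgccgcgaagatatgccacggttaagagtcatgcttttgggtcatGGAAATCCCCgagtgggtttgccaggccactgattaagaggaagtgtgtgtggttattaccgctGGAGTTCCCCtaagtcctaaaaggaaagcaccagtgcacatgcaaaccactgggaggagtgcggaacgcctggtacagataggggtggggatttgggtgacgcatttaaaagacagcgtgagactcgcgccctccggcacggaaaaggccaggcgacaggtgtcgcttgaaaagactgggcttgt
BAX: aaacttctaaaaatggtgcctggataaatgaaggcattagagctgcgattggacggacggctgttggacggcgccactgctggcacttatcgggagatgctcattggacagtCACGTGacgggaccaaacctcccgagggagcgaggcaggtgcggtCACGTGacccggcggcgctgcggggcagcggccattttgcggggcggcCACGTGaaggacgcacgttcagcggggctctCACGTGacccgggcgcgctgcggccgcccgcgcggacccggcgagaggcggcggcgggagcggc

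Windows were found for 32 of the 38 members, and each motif was searched on both strands. The CASP2 window shown held 4 GC box matches, of which a pair overlap. The other CASP2 window held 0 GC boxes and 1 match to the NF-kB consensus. The 32 members have 60 windows, since a gene can have several starts. Some windows of the same gene overlap, as in BID and BAD, so the windows are not independent. Of the 60 windows, 41 (68.3%) held a GC box, against 45.0% of all 35116 windows. The BIRC3 window held 2 matches to the NF-kB consensus, as did a window of CRADD and a window of HRK. At least 1 match was held by 7 of the 60 windows of members (11.7%) and 11.3% of all windows. The shares of every motif count windows with at least 1 match, and no share was computed for several copies. The BAX window held 4 E-boxes, a motif present in 5 of the 60 windows (8.33%; of BAX, BBC3, BID and DIABLO) and in 7.26% of all windows. Matches to the p53 half-site consensus were present in 4 of the 60 windows (6.67%; of BAK1, BCL2L13, CASP8 and CASP9) and 6.63% of all windows. The CCAAT box, searched as CCAAT, was present in 18 of the 60 windows and 34.6% of all windows. A match is a description of the letters and not evidence that a factor binds there.

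The levels of the members spanned a wide range, given here per transcript length in TPM (counts over transcript length, scaled to a fixed sum per library; mean of 6 libraries). BAX was the most abundant at 432 TPM, followed by TNFRSF1A at 157, TNFRSF10B at 152, MCL1 at 106 and DIABLO at 104 TPM. Under 1 TPM were BCL2 at 0.962, BIK at 0.961, BIRC3 at 0.321, CASP10 at 0.269, HRK at 0.206, PMAIP1 at 0.0695 and TNFRSF10A at 0 TPM. The anti-apoptotic transcripts were therefore led by MCL1, with BCL2L1 at 54.1 and BCL2L2 at 35.3 TPM, and BCL2 itself was near the low end.

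**Figure D3:**
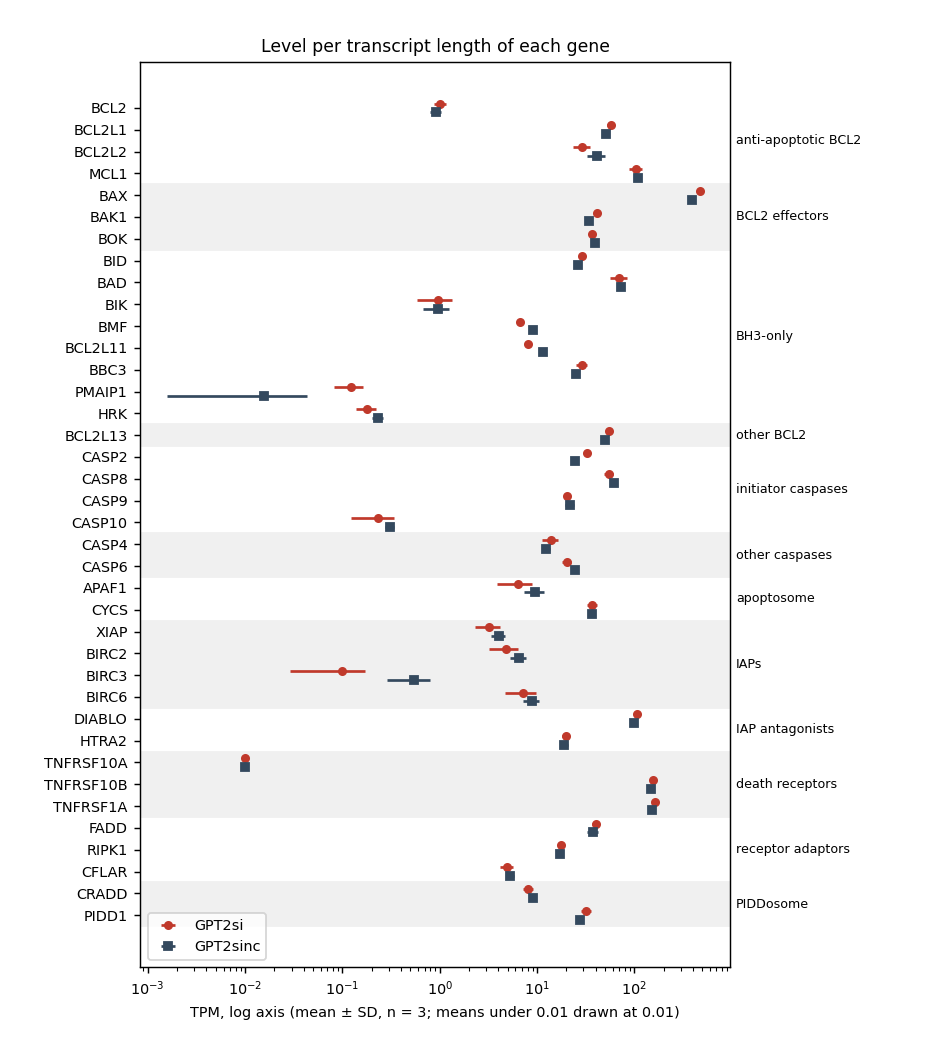
Level of each of the 38 genes per transcript length in TPM on a log axis, mean ± SD of 3 libraries, in GPT2si and GPT2sinc; means under 0.01 are drawn at 0.01, and a lower bar is cut at 0.1 of the mean where the SD is larger. BAX lies highest and TNFRSF10A, with 0 counts, at the floor.

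None of the anti-apoptotic members passed the adjusted threshold, and the 2 with the smallest p lay in opposite directions. BCL2L1, which encodes BCL-XL, had 69.3, 88.5 and 69.5 CPM in GPT2si 1 to 3, against 55.6, 63.8 and 66.6 CPM in GPT2sinc 1 to 3. Every GPT2si library was above every GPT2sinc library. Its log2 fold change came to 0.29 (SE 0.12; adjusted p = 0.234, edgeR with Benjamini-Hochberg adjustment), and to 0.15 without GPT2si 2. BCL2L2, which encodes BCL-W, had 61.3, 44.3 and 52.7 CPM in GPT2si, against 81.9, 66.1 and 59.2 CPM in GPT2sinc. Its groups overlapped, since GPT2si 1 was above GPT2sinc 3, and the log2 fold change came to -0.39 (SE 0.15; adjusted p = 0.198, edgeR with Benjamini-Hochberg adjustment). Without GPT2sinc 1 it was -0.25. MCL1, a short-lived guardian that binds BAK1 and BH3-only proteins, had 222, 182 and 215 CPM in GPT2si, against 201, 199.9 and 195 CPM in GPT2sinc, with a log2 fold change of 0.06 (SE 0.09). Its GPT2si libraries lay on both sides of the GPT2sinc range. BCL2, the founding member of the family, averaged 3.82 ± 0.501 CPM in GPT2si and 3.15 ± 0.285 CPM in GPT2sinc (SD, n = 3 each), with a log2 fold change of 0.27 (SE 0.17).

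The pore-forming effectors BAX and BAK1 had every GPT2si library above every GPT2sinc library, but neither passed the adjusted threshold. BAX had 178, 222 and 170.0 CPM in GPT2si, against 136, 146 and 151 CPM in GPT2sinc, a log2 fold change of 0.39 (SE 0.11; adjusted p = 0.107, edgeR with Benjamini-Hochberg adjustment). BAK1 had 44.4, 51.3 and 39.3 CPM in GPT2si, against 32.1, 35.1 and 35.6 CPM in GPT2sinc, also 0.39 (SE 0.12; adjusted p = 0.121, edgeR with Benjamini-Hochberg adjustment). GPT2si 2 was the highest library for both. Without it the log2 fold changes were 0.26 for BAX and 0.28 for BAK1, and both passed with the DESeq2 Wald test, under which 3 members and 6.23% of all tested genes passed. With GC and length offsets, under which 8 members and 11.4% of all tested genes passed, the values were 0.38 for BAX (adjusted p = 0.0105) and 0.39 for BAK1 (adjusted p = 0.0143), from edgeR with Benjamini-Hochberg adjustment. BOK, a related effector-like protein, averaged 49.8 ± 4.39 CPM in GPT2si and 48.6 ± 0.677 CPM in GPT2sinc (SD, n = 3 each), with a log2 fold change of 0.03 (SE 0.10) that turned to -0.01 with upper-quartile factors.

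The BH3-only genes, which sense stress and start the mitochondrial route, lay in both directions. BID, which is cut by caspase 8 and links the receptor route to mitochondria, had 36.0, 37.3 and 35.2 CPM in GPT2si, against 29.7, 29.9 and 33.3 CPM in GPT2sinc. BBC3, which encodes PUMA, had 22.8, 32.1 and 25.5 CPM in GPT2si, against 20.1, 22.0 and 22.3 CPM in GPT2sinc. For both, every GPT2si library lay above the GPT2sinc range, with log2 fold changes of 0.22 (SE 0.10; adjusted p = 0.243) for BID and 0.32 (SE 0.14; adjusted p = 0.236) for BBC3, from edgeR with Benjamini-Hochberg adjustment. BMF, which is tethered to the cytoskeleton in healthy cells, had 15.0, 17.0 and 15.4 CPM in GPT2si, against 18.7, 20.2 and 20.7 CPM in GPT2sinc. BCL2L11, which encodes BIM, had 6.26, 6.11 and 6.28 CPM in GPT2si, against 8.24, 8.27 and 7.88 CPM in GPT2sinc. Here every GPT2si library lay below the GPT2sinc range. The log2 fold changes were -0.33 (SE 0.11; adjusted p = 0.154) for BMF and -0.39 (SE 0.13; adjusted p = 0.148) for BCL2L11, from edgeR with Benjamini-Hochberg adjustment. None of these 4 passed the adjusted threshold. Without GPT2si 2, BBC3 was at 0.16, and BMF passed at -0.40 (adjusted p = 0.0429, edgeR with Benjamini-Hochberg adjustment). With GC and length offsets BBC3 was at 0.38 (adjusted p = 0.02) and BMF at -0.35 (adjusted p = 0.0231), both past the threshold in edgeR with Benjamini-Hochberg adjustment.

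The other BH3-only genes showed smaller differences or very low counts. BAD, at 71.2 TPM the most abundant BH3-only transcript, had 35.9, 53.7 and 34.1 CPM in GPT2si, against 34.7, 39.3 and 43.4 CPM in GPT2sinc. Its groups overlapped and the log2 fold change came to 0.08 (SE 0.17), with leave-one-out values of -0.17 to 0.20. BIK had 23, 27 and 12 counts in GPT2si, against 13, 20 and 25 counts in GPT2sinc. HRK, which encodes Harakiri, had 20, 22 and 28 counts in GPT2si, against 30, 25 and 30 counts in GPT2sinc. At these counts a small difference in BIK or HRK was not detectable, with standard errors of 0.44 and 0.32. PMAIP1, which encodes NOXA, did not pass the count filter, with 4, 5 and 7 counts in GPT2si and 0, 2 and 0 counts in GPT2sinc, and no fold is given. BCL2L13, a BCL2-like protein of the mitochondrial membrane, had 82.5, 82.4 and 84.4 CPM in GPT2si, against 66.8, 71.5 and 71.9 CPM in GPT2sinc. The groups did not overlap, and the log2 fold change came to 0.25 (SE 0.08; adjusted p = 0.146, edgeR with Benjamini-Hochberg adjustment). With GC and length offsets it passed at 0.29 (adjusted p = 0.0299, edgeR with Benjamini-Hochberg adjustment).

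CASP2 rose in GPT2si. It encodes caspase 2, an initiator caspase that is activated on a scaffold called the PIDDosome, made of PIDD1 and CRADD, and lies on chromosome 7, 143288215 to 143307696, on the plus strand in GENCODE 29. It had 70.0, 72.0 and 65.6 CPM in GPT2si, against 43.7, 52.8 and 49.5 CPM in GPT2sinc, and averaged 69.2 ± 3.29 CPM in GPT2si and 48.7 ± 4.61 CPM in GPT2sinc (SD, n = 3 each). Every GPT2si library was above every GPT2sinc library, with GPT2sinc 1 the lowest. Its log2 fold change came to 0.51 (SE 0.10; 1.42-fold; adjusted p = 0.0476, edgeR with Benjamini-Hochberg adjustment). Its direction was the same in all 15 alternatives, with log2 fold changes of 0.44 to 0.63, and it was past the threshold in 7 of them. The call was lost when any library other than GPT2si 2 was left out, with adjusted p of 0.0588 to 0.241 (edgeR with Benjamini-Hochberg adjustment), and was kept without GPT2si 2 at 0.0257.

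The scaffold genes of the PIDDosome did not pass. PIDD1, a p53-induced protein with a death domain, had 44.6, 58.9 and 41.9 CPM in GPT2si, against 40.5, 36.6 and 38.5 CPM in GPT2sinc. The groups did not overlap, GPT2si 2 was highest, and the log2 fold change came to 0.33 (SE 0.13; adjusted p = 0.22, edgeR with Benjamini-Hochberg adjustment). Without GPT2si 2 it was 0.15, and with GC and length offsets it passed at 0.31 (adjusted p = 0.0376, edgeR with Benjamini-Hochberg adjustment). PIDD1 shares 1.82% of its exonic length with RPLP2 on the opposite strand, which averaged 24916 counts, and the strand setting of the counting is not given. CRADD, the adaptor between PIDD1 and caspase 2, averaged 5.73 ± 0.341 CPM in GPT2si and 5.99 ± 0.430 CPM in GPT2sinc (SD, n = 3 each), with a log2 fold change of -0.06 (SE 0.14).

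The remaining caspases showed no difference that passed. CASP8, the initiator of the receptor route, had 46.8, 42.0 and 45.1 CPM in GPT2si, against 44.0, 47.5 and 49.6 CPM in GPT2sinc. The groups overlapped, and the log2 fold change of -0.07 (SE 0.10) turned to 0.01 with GC and length offsets. CASP9, the initiator of the apoptosome, averaged 20.6 ± 1.44 CPM in GPT2si and 20.4 ± 2.44 CPM in GPT2sinc (SD, n = 3 each), a log2 fold change of 0.01 (SE 0.12). CASP10, a relative of caspase 8, had 49, 31 and 15 counts in GPT2si, against 34, 44 and 37 counts in GPT2sinc. Its log2 fold change came to -0.27 (SE 0.39), and a small difference was not detectable at these counts. CASP6, an executioner-type caspase, had 16.8, 15.0 and 15.5 CPM in GPT2si, against 15.6, 18.2 and 19.3 CPM in GPT2sinc, while CASP4, an inflammatory caspase, averaged 15.0 ± 2.05 CPM in GPT2si and 12.5 ± 1.61 CPM in GPT2sinc (SD, n = 3 each). Their groups overlapped, with log2 fold changes of -0.17 (SE 0.12) for CASP6 and 0.26 (SE 0.15) for CASP4, which was at 0.16 without GPT2sinc 1 and 0.42 with GC and length offsets.

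**Figure D4:**
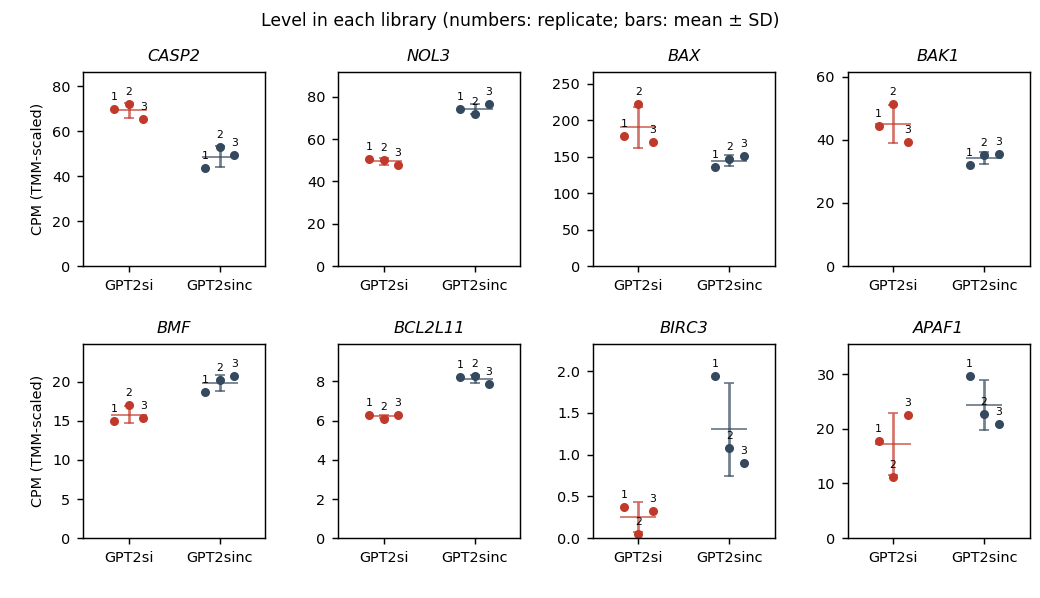
TMM-scaled CPM in each library (points, numbered by replicate) with the group mean ± SD, for 8 genes in GPT2si and GPT2sinc. The groups overlap for APAF1 and do not overlap for the other 7 genes, of which CASP2 and NOL3 passed the adjusted threshold.

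Both parts of the apoptosome overlapped between groups. APAF1, its scaffold, averaged 17.2 ± 5.69 CPM in GPT2si and 24.4 ± 4.59 CPM in GPT2sinc (SD, n = 3 each), with a log2 fold change of -0.50 (SE 0.23; adjusted p = 0.266, edgeR with Benjamini-Hochberg adjustment). Its lowest library was GPT2si 2 at 11.2 CPM and its highest was GPT2sinc 1 at 29.6 CPM, the pair that stood apart, and without GPT2si 2 the value was -0.29. With GC and length offsets it was -0.38. CYCS, which encodes cytochrome c, had 80.6, 70.8 and 75.8 CPM in GPT2si, against 68.4, 68.9 and 72.2 CPM in GPT2sinc, a log2 fold change of 0.12 (SE 0.09). The GPT2si range began below the highest GPT2sinc library.

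Fitted changes of all 4 IAP genes were negative, and 0 of them passed the adjusted threshold. BIRC3, which encodes the ubiquitin ligase cIAP2 and is a known target of NF-kB, had 19, 2 and 15 counts in GPT2si, against 89, 50 and 39 counts in GPT2sinc. The groups did not overlap, and GPT2si 2 was the lowest. In CPM it averaged 0.253 ± 0.176 in GPT2si and 1.30 ± 0.558 in GPT2sinc (SD, n = 3 each), and the log2 fold change came to -2.31 (SE 0.53; adjusted p = 0.0702, edgeR with Benjamini-Hochberg adjustment). BIRC3 is the member nearest to the threshold among those that missed it. Its GC content is 34.8%, in the range where GPT2si 2 was low across all genes, and without GPT2si 2 the log2 fold change came to -1.89 and passed. It also passed with GC and length offsets at -2.09 (adjusted p = 0.0207, edgeR with Benjamini-Hochberg adjustment). Over the 14 alternatives that gave a value it lay between -2.73 and -1.89. BIRC2, which encodes cIAP1, averaged 9.74 ± 2.66 CPM in GPT2si and 12.3 ± 1.87 CPM in GPT2sinc (SD, n = 3 each), with a log2 fold change of -0.34 (SE 0.21).

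XIAP, the most direct caspase inhibitor of the family, averaged 13.9 ± 3.17 CPM in GPT2si and 16.2 ± 1.91 CPM in GPT2sinc (SD, n = 3 each), with a log2 fold change of -0.22 (SE 0.18). BIRC6, a very large ubiquitin ligase also called BRUCE, had 57.8, 38.9 and 71.5 CPM in GPT2si, against 75.5, 62.4 and 57.2 CPM in GPT2sinc, a log2 fold change of -0.21 (SE 0.20). For both, GPT2si 2 was lowest. With GC and length offsets the values were -0.01 for XIAP, -0.03 for BIRC6 and -0.19 for BIRC2. Without GPT2si 2 they were -0.07, -0.03 and -0.16 for the same genes, without GPT2sinc 1 -0.13, -0.10 and -0.21, and without GPT2si 3 -0.38, -0.43 and -0.53. DIABLO, the mitochondrial protein that displaces IAPs from caspases, had 77.3, 86.3 and 74.2 CPM in GPT2si, against 64.2, 69.9 and 72.6 CPM in GPT2sinc, and its groups did not overlap. Its log2 fold change came to 0.20 (SE 0.09; adjusted p = 0.276, edgeR with Benjamini-Hochberg adjustment), and 0.12 without GPT2si 2. HTRA2, a mitochondrial protease with the same IAP-binding activity, averaged 23.5 ± 2.66 CPM in GPT2si and 21.0 ± 2.98 CPM in GPT2sinc (SD, n = 3 each), with a log2 fold change of 0.16 (SE 0.14) and leave-one-out values from 0.07 without GPT2si 2 to 0.28 without GPT2sinc 3.

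Of the TRAIL receptors, 1 was abundant and 1 was not detected. TNFRSF10B, which encodes DR5, had 324, 341 and 309.7 CPM in GPT2si, against 279, 294 and 288 CPM in GPT2sinc, and its groups did not overlap. Its log2 fold change came to 0.18 (SE 0.08; adjusted p = 0.24, edgeR with Benjamini-Hochberg adjustment). TNFRSF10A, which encodes DR4, had 0 counts in all 6 libraries, which allows up to a floor of 3 counts per library. That floor is 0.0590 to 0.0715 CPM, computed from total counts without TMM factors. TNFRSF1A, the main TNF receptor, had 171, 212 and 165 CPM in GPT2si, against 141, 156 and 172 CPM in GPT2sinc, with a log2 fold change of 0.22 (SE 0.12), and of 0.09 without GPT2si 2. Its groups overlapped, since GPT2sinc 3 was above GPT2si 1 and 3. In bulk RNA, fewer cells with a transcript and less of it per cell cannot be told apart.

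The receptor adaptors did not pass. FADD, which links death receptors to caspase 8, had 35.5, 43.5 and 33.1 CPM in GPT2si, against 27.5, 31.6 and 38.1 CPM in GPT2sinc, with a log2 fold change of 0.21 (SE 0.15) and groups that overlapped. Leave-one-out values ran from 0.07 without GPT2si 2 to 0.34 without GPT2sinc 3. RIPK1, the kinase that directs TNF receptor signalling to survival or death, averaged 36.7 ± 0.999 CPM in GPT2si and 33.3 ± 2.85 CPM in GPT2sinc (SD, n = 3 each), with a log2 fold change of 0.14 (SE 0.10). CFLAR, which encodes the caspase 8 inhibitor cFLIP, averaged 36.1 ± 3.06 CPM in GPT2si and 36.3 ± 2.75 CPM in GPT2sinc (SD, n = 3 each). Its log2 fold change came to -0.01 (SE 0.11) and turned to 0.20 with GC and length offsets.

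Another 75 genes of cell death pathways gave 3 genes that fell and 0 that rose among the 61 that were tested (4.92%), against 1.42% of all tested genes called and 0.841% lower, with a median log2 fold change of -0.03. NOL3, which encodes the caspase recruitment domain protein ARC that binds and inhibits caspases 2 and 8, had 50.6, 50.3 and 47.6 CPM in GPT2si, against 74.2, 71.7 and 76.5 CPM in GPT2sinc. The groups did not overlap, and the log2 fold change came to -0.58 (SE 0.08; adjusted p = 0.0202, edgeR with Benjamini-Hochberg adjustment). BNIP3, a mitophagy receptor that is induced by low oxygen, had 173, 136 and 167 CPM in GPT2si, against 282, 258 and 258 CPM in GPT2sinc, and fell with a log2 fold change of -0.75 (SE 0.10; adjusted p = 0.0159, edgeR with Benjamini-Hochberg adjustment). TNIP1, a ubiquitin-binding partner of A20 that dampens NF-kB signalling, had 160, 156 and 155 CPM in GPT2si, against 205, 199 and 216 CPM in GPT2sinc, and fell with a log2 fold change of -0.39 (SE 0.08; adjusted p = 0.0468, edgeR with Benjamini-Hochberg adjustment). All 3 were lower in each of the 15 alternatives, but NOL3 was past the threshold in 10, BNIP3 in 11 and TNIP1 in 6. TNIP1 lost its call with DESeq2 size factors, limma-voom and no low-count filter, with adjusted p of 0.0520 to 0.104 (edgeR or limma with Benjamini-Hochberg adjustment), and when any library other than GPT2si 2 was left out. NOL3 also lost its call when any library other than GPT2si 2 was left out, and BNIP3 without GPT2si 1 or any 1 of the GPT2sinc libraries.

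By list, the other caspase, IAP and receptor genes gave 1 fall (NOL3) among 20 tested of 28 (5%), against 1.42% of all tested genes. Their median log2 fold change was -0.03. BIRC7, an IAP known from melanoma, had a log2 fold change of -0.80 (SE 0.21). The decoy receptor TNFRSF10C had one of -1.21 (SE 0.34) and the death receptor TNFRSF21 one of 0.98 (SE 0.28), and none of the 3 passed. All 3 had low counts per library, 34 to 82 for BIRC7, 15 to 64 for TNFRSF10C and 34 to 100 for TNFRSF21. The 12 genes of caspase substrates and execution gave 0 calls by edgeR, and the values of ANXA5, ACIN1 and DFFB were 0.30 (SE 0.09), 0.20 (SE 0.07) and 0.24 (SE 0.15). ANXA5, the phosphatidylserine-binding protein used to stain dying cells, had the highest TPM of that list as a mean of the 6 libraries, at 355 against 337 for PARP1, which was higher in the GPT2sinc mean. The 16 mitochondrial membrane partners gave 1 fall (6.25%), BNIP3, and a median of -0.07. Its relative BNIP3L was at 114, 66.6 and 116 CPM in GPT2si, against 179, 146 and 153 CPM in GPT2sinc, without overlap, with a log2 fold change of -0.69 (SE 0.19; adjusted p = 0.103, edgeR with Benjamini-Hochberg adjustment). The permeability transition regulator PPIF, the fusion protein MFN2 and the ADP/ATP carrier SLC25A6, highest of the list in TPM, had values of 0.36 (SE 0.10), 0.21 (SE 0.09) and 0.23 (SE 0.10).

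Necroptosis and pyroptosis genes gave 0 calls by edgeR among 6 tested of 11, and RIPK3 and ZBP1 had 0 counts. The inflammasome sensor NLRP1, the necroptosis effector MLKL, and RNF31 and RBCK1 of the linear ubiquitin ligase complex had log2 fold changes of 0.65 (SE 0.28), -0.28 (SE 0.38), -0.23 (SE 0.18) and -0.06 (SE 0.10). The NF-kB target list gave 1 fall, TNIP1, among 7 tested of 8 (14.3%), against 1.42% of all tested genes called and 0.841% lower. Fitted changes were negative for 4 and positive for 3 of the 7, with a median of -0.25. TNFAIP3, which encodes the NF-kB inhibitor A20, averaged 0.738 ± 0.311 CPM in GPT2si and 1.60 ± 0.299 CPM in GPT2sinc (SD, n = 3 each), a log2 fold change of -1.10 (SE 0.32) that did not pass. The NF-kB subunits NFKB2 and RELB had values of -0.25 (SE 0.09) and 0.39 (SE 0.15), in opposite directions.

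Some counts of members and of the further lists may hold reads of other genes. BAD shares 23.7% of its exonic length with GPR137, BCL2L11 10.9% with MIR4435-2HG, HTRA2 20.8% with LOXL3 and 16.1% with AUP1, DIABLO 14.3% with B3GNT4 and NOL3 4.48% with MATCAP1, all on opposite strands, while BCL2L2 shares 19.4% with the readthrough gene BCL2L2-PABPN1 on the same strand. Of the further lists, TNFRSF10C shares 26.0% with a lincRNA on the same strand, which averaged 178 counts against 36.8 for TNFRSF10C. RNF31 shares 34.8% with ENSG00000259529 on the same strand, which averaged 2983 counts against 475 for RNF31. The libraries were made to keep strand, but no source used here gives the strand setting of the counting. The values of these genes are therefore uncertain.

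**Figure D5:**
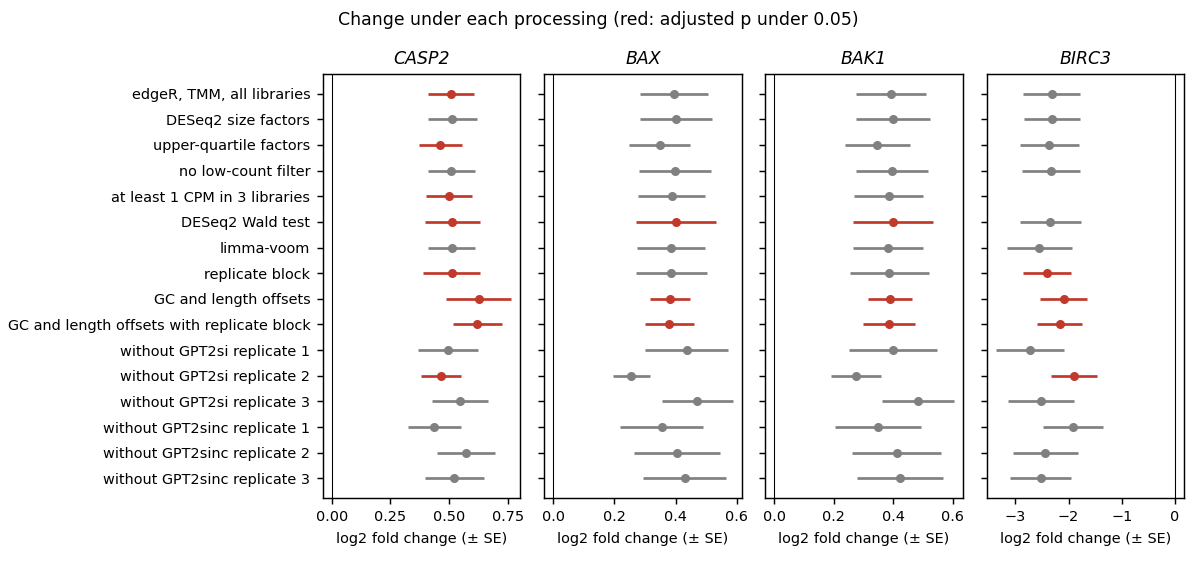
Log2 fold change, GPT2si over GPT2sinc, with its standard error for CASP2, BAX, BAK1 and BIRC3 under the edgeR fit with TMM factors and each of 15 alternatives (rows), red where the adjusted p was under 0.05. All values keep their sign; BIRC3 has no value under the 1 CPM filter, and DESeq2 gave no adjusted p for it, so it is grey there.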

How the data were processed

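Poly(A) RNA of 6 A2780 libraries (3 GPT2si, 3 GPT2sinc) was sequenced from dUTP-stranded libraries, per the labels' protocols. The authors deposited raw counts, as whole numbers for each Ensembl gene. The submitters' processing notes name CASAVA and StringTie, without versions; for the aligner, strand setting, genome build and annotation, the sources used here give nothing. Groups and replicate numbers came from the sample titles, and 0 columns were left unmapped.

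The counts were tested with edgeR 4.0.16 (glmQLFit and glmQLFTest, R 4.3.3) with TMM factors, filterByExpr and group as the only term, and Benjamini-Hochberg adjustment over 17006 genes, with a threshold of 0.05. SE was derived from the F statistic. CPM was TMM-scaled. TPM used the principal transcript's length in GENCODE 29, and promoters came from RefSeq GRCh38.p14. The test was checked on simulated data. Floors cover counting error only, since PCR reads are not independent molecules.

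The members and lists were chosen with earlier results of these data known. Every member is named. Values in every library are given for members at an unadjusted p under 0.05 and for the most abundant of each role. From each further list, genes past the test, up to 3 others with the smallest p and the most abundant are named; some genes of the rule are not reported here. Alternatives were DESeq2 1.42.0 (size factors, Wald test), upper-quartile factors, limma-voom (limma 3.58.1), other filters, a replicate block, GC and length offsets (loess span 0.5), and leaving out each library.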

Additional observations from a re-analysis of the deposited data

How the results depend on the processing

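Of 536 member values under 15 alternatives, 489 kept their direction and side of the threshold, where a missing adjusted p was counted as not passing. The DESeq2 Wald test gave no adjusted p for BIK, HRK, CASP10 and BIRC3. In all of the alternatives, 27 of 36 members kept their direction. Over all genes the count of 241 (98 higher, 143 lower in GPT2si) was 173 with DESeq2 size factors, 242 with upper-quartile factors (75 higher, 167 lower), 44 without a low-count filter, 249 with at least 1 CPM in 3 libraries, 1060 with the DESeq2 Wald test (569 higher, 491 lower), 174 with limma-voom, 1945 with GC and length offsets (1245 higher, 700 lower), and 1 to 836 when a library was left out, with 836 without GPT2si 2. The members' count of 1 was 0 with DESeq2 size factors, without a low-count filter and with limma-voom, 1 with upper-quartile factors and the 1 CPM filter, 3 with the Wald test, 8 with GC and length offsets (6 higher, 2 lower), and 0 to 3 when a library was left out, where 3 came without GPT2si 2. The further lists' count of 3 was 2 with DESeq2 size factors, without a low-count filter and with limma-voom, 5 with the Wald test, 13 with GC and length offsets, and 0 to 6 when a library was left out. GPT2 passed in all 15, at -1.31 to -1.24.

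Same-numbered libraries did not stand out as pairs: their deviations correlated at 0.0855, 0.1136 and -0.187, and not every library correlated best with its own number. With 3 libraries a group, these correlations cannot decide whether same-numbered libraries shared a culture or day. With the replicate block 558 genes, 2 members (CASP2 and BIRC3) and 3 genes of the further lists passed, of which 2 are shared with the 3 of the fit without it since TNIP1 lost its call, and with GC and length offsets and the replicate block together 1874, 9 and 11. The block alone gave BIRC3 -2.41 (adjusted p = 0.00744) and TNIP1 -0.39 (adjusted p = 0.0515), and offsets with the block gave BCL2L2 -0.40 (adjusted p = 0.0261) and APAF1 -0.39 (adjusted p = 0.0459), which passed, while PIDD1 did not at 0.30 (adjusted p = 0.0505), from edgeR with Benjamini-Hochberg adjustment. The direction turned for BOK (-0.0134) and CASP9 (-0.0339) with upper-quartile factors, and for CASP8 (0.0067, and 0.0081 with the replicate block) and CFLAR (0.20, and 0.19 with the replicate block) with GC and length offsets; the cause was not tested. Leaving out a library gave ranges that include both signs for MCL1 (-0.0072 to 0.12), BOK (-0.0472 to 0.0947), BAD (-0.17 to 0.20), BIK (-0.25 to 0.41), CASP9 (-0.0769 to 0.10), CASP10 (-0.60 to 0.0703), CFLAR (-0.069 to 0.0456) and CRADD (-0.11 to 0.0001). With 3 libraries a group, and counts under 100 for BIK, HRK, CASP10 and BIRC3, small differences of these genes were not detectable.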
